A study of Homo sapiens with 28 samples.

Results

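The proteasome genes described here are the 48 genes of the deposited count tables whose symbol is PSM, a letter from A to G and a number, out of 60286 genes listed. They were measured by RNA-seq in HT-1080 cells, a human fibrosarcoma line of wild-type genotype, in 28 libraries that form 7 groups of 4 independent replicates. All cells were treated overnight. The first 6 groups received an agent: 10 nM RSL3, 80 µM linoleic acid (LA), 10 nM RSL3 with 80 µM LA, 80 µM conjugated linoleic acid (CLA18:2), 10 nM RSL3 with 80 µM CLA18:2, or 5 µM CLA18:3, while the last received the vehicle, DMSO. RSL3 inhibits GPX4, which detoxifies lipid peroxides, and is a standard trigger of ferroptosis. LA and CLA18:2 have the same chain length and number of double bonds and differ in whether the double bonds are conjugated, and CLA18:3 is a conjugated acid with a further double bond.

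The 26S proteasome degrades proteins tagged with ubiquitin. Its 20S core is a barrel of alpha rings (PSMA genes), which gate the entrance, and beta rings (PSMB genes), which hold the proteolytic sites, and its 19S cap holds a ring of ATPases (PSMC genes) that unfold the substrate and non-ATPase subunits (PSMD genes) that recognise and deubiquitinate it. Dedicated chaperones (PSMG1 to PSMG4 for the core, PSMD5, PSMD9 and PSMD10 for the cap) guide assembly without staying in the finished particle. In mammalian cells the transcription factor NFE2L1 raises the subunit genes together when proteasome activity is limiting, and NFE2L2 raises them under electrophile and oxidant stress.

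Library totals ran from 16226270 to 24286824 counts. Levels are given as CPM, a library's counts rescaled to a common total, with library sizes adjusted by TMM, a trimmed mean of gene-wise log ratios. Differences were tested with edgeR's quasi-likelihood F test on all 28 libraries, over the 16325 genes that passed a low-count filter, and a gene was called at a Benjamini-Hochberg adjusted p under 0.05. The mesenchymal markers VIM, FN1 and SPARC averaged 2287, 5704 and 2943 CPM in DMSO cells, S100A4 averaged 1.01 CPM, and none of 12 epithelial or blood markers exceeded 3.92 CPM in a library. In 8 libraries mitochondrial mRNA made up under 1% of counts (3 with RSL3+CLA18:2, 2 with CLA18:2 and 1 each with CLA18:3, LA and RSL3). In these bulk samples a change in the make-up of the cells and a change in RNA per cell cannot be told apart.

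Of the 48 genes, 43 passed the filter and were tested. The untested genes were PSMB3, PSMB8, PSMB9, PSMB11 and PSMA8. PSMB11, the thymus beta subunit, had 0 to 7 counts a library, and PSMA8, the alpha subunit of the testis, had 0 in all 28. PSMB8 and PSMB9, catalytic subunits of the interferon-induced immunoproteasome, also had 0 counts in all 28 libraries, and PSMB3, a constitutive beta subunit, had 11 counts over all of them. PSMB8 and PSMB9 lie in a stretch where a gene that every cell uses is also near 0. RPS18, a ribosomal protein gene near PSMB8 and PSMB9 on chromosome 6, had 42 to 98 counts a library, against 24422 to 43701 for RPS3, and 204 of the 275 listed genes of the surrounding stretch, chr6:29636060-33457548, had no count in any library. Around PSMB3, chr17:38530016-39053205, this held for 10 of 23 genes (positions from GENCODE 29 on GRCh38). Of all 60286 genes listed, 35424 had a count in some library, so the share around PSMB3 was near that of all genes. A count of 0 for PSMB8 and PSMB9 was therefore not read as absence of expression. For PSMB3 the reason for the low counts was not tested, and absence was not read from them either.

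Per kilobase of exon, the 20S and 19S subunits were unevenly represented in DMSO cells. The length used merges the exons of all annotated transcripts of a gene, so it can exceed that of the mRNA expressed. It was 1750 bases for PSMA7 and 6506 for PSMA6. The part of this length in the unevenness was not tested. PSMD2, which with PSMD1 forms the scaffold of the 19S base, averaged 2268 ± 18 CPM (SD, n = 4) or 416 CPM per kilobase, and the next, the alpha subunit PSMA7, averaged 177 CPM per kilobase. The catalytic subunits PSMB5, PSMB7 and PSMB6 averaged 129, 121 and 71.4 CPM per kilobase. At the other end, PSMA2 averaged 0.735 CPM and PSMA6 6.5 CPM, or 0.138 and 1 CPM per kilobase. PSMD2, PSMA7, PSMA2 and PSMA6 were singled out here after their values were seen. In the annotation 14.6% of the exon bases of PSMA2 and 14.1% of those of PSMA6 are shared with another gene on the same strand, and the pseudogene rows of PSMA6 held 29.4% as many counts as PSMA6 itself, so the values of these genes depend on how shared reads were assigned. The same holds for PSMA1, with 24.7% of its exon bases shared, for PSMB10, with 34.8%, and for PSMD9, with 19.9%. Of the exon bases of PSMC1, 75.8% are shared with genes on either strand, and whether counting used strand is not given. The same limit holds for PSMD7, with 30.7%, PSMC5, with 19.5%, PSMG2, with 16.7%, and PSMG4, with 15%, and at lower shares for other members.

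CLA18:2 raised the mRNAs of almost all subunits of the 26S particle. With the conjugated acid alone, 32 of the 43 genes tested rose and 3 fell, against 20.1% of all genes tested called higher and 18.6% lower, so that 81.4% of the members were called. Of the 30 core 26S subunits tested, 29 rose and none fell, and the remaining one was PSMA2. Their median log2 fold change was 0.68, a 1.6-fold difference, while the median over all genes tested was -0.02. The 48 genes together took 11969 ± 377 CPM in CLA18:2 cells and 8207 ± 102 CPM in DMSO cells (SD, n = 4 each), that is 1.2% and 0.821% of the scaled counts.

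**Figure D1:**
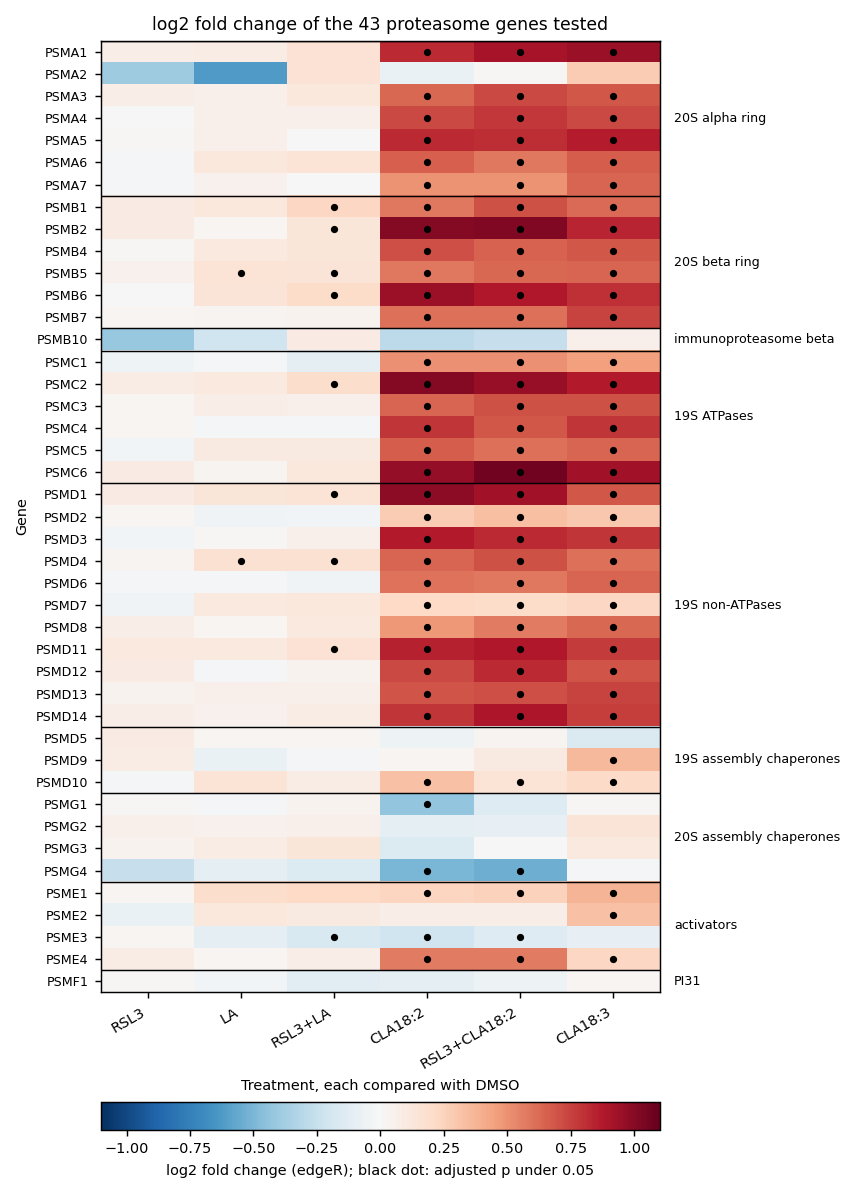
Heat map of the log2 fold change of the 43 genes tested (rows, grouped by role) in each treatment against DMSO (columns), with a black dot where the adjusted p was under 0.05. Apart from PSMA2, core subunit rows are red in the 3 columns with a conjugated acid, where 29 of 30 are dotted in each. They are pale in the RSL3, LA and RSL3+LA columns, where 0, 2 and 8 of 30 are dotted. PSMA2 stands at -0.07 with CLA18:2, 0.01 with RSL3+CLA18:2, -0.39 with RSL3 and -0.62 with LA.

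The rise covered each class of core subunits. All 6 tested subunits of the beta ring, all 6 ATPases and all 11 non-ATPase subunits rose with CLA18:2, as did 6 of 7 alpha subunits, with class medians of 0.66, 0.73, 0.69 and 0.66 on the log2 scale. Summed over the alpha ring, CLA18:2 cells had 1185 ± 60.7 CPM and DMSO cells 758 ± 12.6 CPM (SD, n = 4 each). The beta ring summed to 2017 ± 72.4 CPM in CLA18:2 cells and 1214 ± 20.8 CPM in DMSO cells.

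PSMB5 (chr14:23016543-23035230, minus strand) encodes the beta subunit with chymotrypsin-like activity, the main target of bortezomib. It measured 337, 327, 340 and 357 CPM in the CLA18:2 libraries, against 225, 230, 234 and 221 CPM in the DMSO libraries. Every CLA18:2 library lay above every DMSO library, and the log2 fold change was 0.58 ± 0.04 (SE; adjusted p = 5.3e-14, edgeR). PSMB6 and PSMB7, which carry the caspase-like and trypsin-like activities, rose by 0.94 ± 0.06 and 0.61 ± 0.05 on the log2 scale (adjusted p = 3.0e-14 and 1.1e-12, edgeR).

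The largest change in the beta ring was that of PSMB2 (chr1:35599544-35641844, minus strand), a structural beta subunit. It had 431, 451, 465 and 462 CPM with CLA18:2, against 225, 228, 225 and 220 CPM with DMSO. The groups were far apart, with a log2 fold change of 1.01 ± 0.04 (adjusted p = 3.4e-21, edgeR). The smallest change in the ring was that of PSMB1, at 0.58 ± 0.05. In the alpha ring PSMA5 rose most, by 0.82 ± 0.04, to 216, 217, 228 and 228 CPM in CLA18:2 libraries, against 121, 126, 127 and 127 CPM in DMSO libraries. PSMA2 had a log2 fold change of -0.07 with a 95% interval from -1.29 to 1.14, so at its level of under 1 CPM neither a rise like that of the other subunits nor a fall could be detected.

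Among the ATPases, PSMC2 (chr7:103344254-103369395, plus strand) had 263, 257, 279 and 279 CPM in CLA18:2 libraries, against 141, 130, 136 and 128 CPM in DMSO libraries. The groups did not overlap, and the log2 fold change was 1.01 ± 0.05 (adjusted p = 4.4e-19, edgeR). PSMC1 moved least, at 0.50 ± 0.06. Among the non-ATPases, PSMD1, a scaffold of the base, rose by 0.98 ± 0.04 and PSMD11, a lid subunit, by 0.85 ± 0.04. PSMD7, the catalytically inactive partner of the deubiquitinase PSMD14, moved least of the called core subunits, with 80.9, 85.6, 89.3 and 85.7 CPM in CLA18:2 libraries, against 70.1, 80.7, 73.6 and 67.7 CPM in DMSO libraries. The lowest CLA18:2 library lay just above the highest DMSO library, and the log2 fold change was 0.22 ± 0.06 (adjusted p = 0.00335, edgeR). PSMD14 itself rose by 0.79 ± 0.04. PSMD2, the subunit with the highest level per kilobase, rose by 0.28 ± 0.03, with 2672 to 2880 CPM in CLA18:2 libraries and 2245 to 2283 CPM in DMSO libraries.

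The remaining core subunits lay between these values in CLA18:2 cells. In the alpha ring, PSMA4 had 312, 302, 312 and 321 CPM with CLA18:2, against 186, 189, 196 and 180 CPM with DMSO, a log2 fold change of 0.73 ± 0.04. PSMA3, at 0.63 ± 0.05, and PSMA7, at 0.49 ± 0.07, had the smallest rises of the ring. PSMA1 rose by 0.82 ± 0.10 and PSMA6 by 0.66 ± 0.14, with wider errors than PSMA4. PSMB4, a structural beta subunit, rose by 0.71 ± 0.05.

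The ATPases form a hexamer in which PSMC1 pairs with PSMC2, PSMC4 with PSMC5 and PSMC3 with PSMC6. PSMC6 had 195, 201, 194 and 210 CPM with CLA18:2, against 103, 103, 102 and 100 CPM with DMSO, without overlap, and rose by 0.97 ± 0.05, while its partner PSMC3 rose by 0.64 ± 0.05. PSMC4 and PSMC5 rose by 0.79 ± 0.05 and 0.67 ± 0.05. In the lid, PSMD3, PSMD12 and PSMD13 rose by 0.87 ± 0.06, 0.73 ± 0.04 and 0.69 ± 0.04, and PSMD6 and PSMD8 by 0.60 ± 0.04 and 0.48 ± 0.04. The ubiquitin receptor PSMD4 had 227, 224, 238 and 229 CPM with CLA18:2, against 147, 157, 149 and 138 CPM with DMSO, and rose by 0.64 ± 0.04. The ATPases summed to 1745 ± 88.1 CPM in CLA18:2 cells and 1040 ± 28.7 CPM in DMSO cells, and the non-ATPases to 6042 ± 158 CPM in CLA18:2 cells and 4231 ± 35.5 CPM in DMSO cells (SD, n = 4 each).

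**Figure D2:**
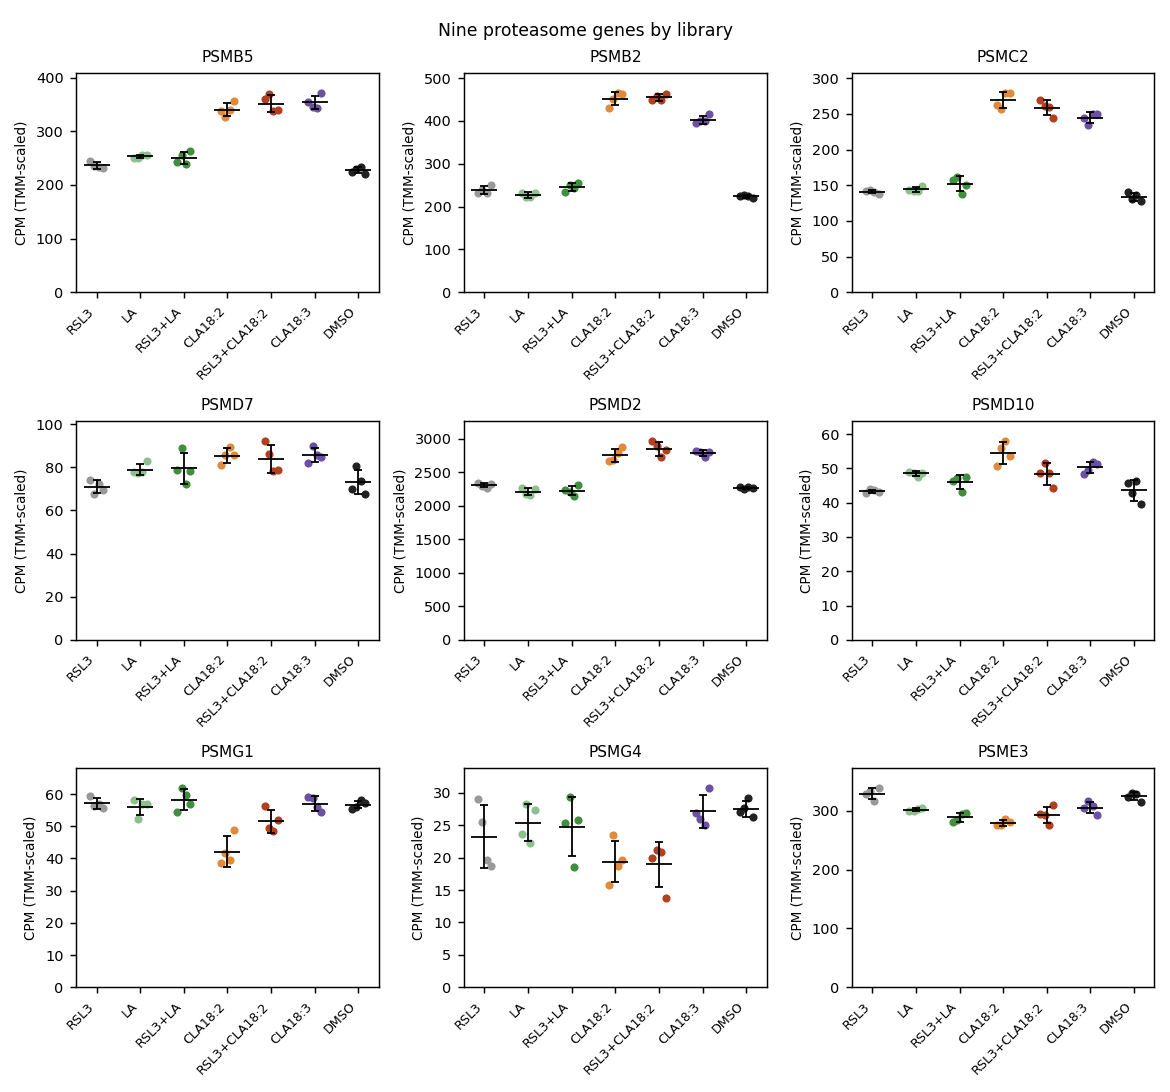
CPM (TMM-scaled, linear axis from 0) of 9 proteasome genes in every library, 1 point a library, with the mean (horizontal mark) and SD (bars) of each group of 4, and DMSO at the right. PSMB5, PSMB2 and PSMC2 form a high level in the 3 groups with a conjugated acid, PSMD7 and PSMD2 show the smallest rises of the core subunits, and PSMG1 has its lowest mean with CLA18:2.

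RefSeq promoter sequences (GRCh38.p14) were available for 42 of the 48 genes, and the 250 bases before the most upstream start were searched on both strands. The core of the antioxidant response element, TGACNNNGC, which NFE2L1 and NFE2L2 bind with a small MAF protein, was found in 11 of the 42 promoters (26.2%), against 11.1% of 27305 promoters of all genes. Among members that rose with CLA18:2, 4 of 27 promoters held it, and among tested members that did not rise, 5 of 10 did. The CCAAT box, bound by NF-Y, was found in 18 of the 42 (42.9%), against 33% of all promoters, and in 12 of the 27 that rose and 3 of the 10 that did not. These letters are a description of the windows and not evidence of binding. The lines below, each in the direction of its gene with the match in capitals, show the element in PSMD12 and PSME1, which rose, and in PSMD9, which was not called with CLA18:2, and the CCAAT box in PSMA5 and PSMB5, which rose.
PSMD12, chr17:67366709-67366767, minus strand: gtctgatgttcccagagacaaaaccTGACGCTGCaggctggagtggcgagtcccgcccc
PSME1, chr14:24136083-24136141, plus strand: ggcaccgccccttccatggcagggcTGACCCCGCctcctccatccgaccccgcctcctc
PSMD9, chr12:121888663-121888721, plus strand: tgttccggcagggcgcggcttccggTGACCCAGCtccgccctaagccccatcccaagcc
PSMA5, chr1:109426473-109426527, minus strand: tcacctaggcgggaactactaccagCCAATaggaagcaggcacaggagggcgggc
PSMB5, chr14:23035355-23035409, minus strand: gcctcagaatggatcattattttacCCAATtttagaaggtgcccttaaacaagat
The matches begin 165, 86, 102, 54 and 164 bases before the start, in the order of the lines. The PSMD12 and PSMD9 lines match the same pattern in different letters. Their log2 fold changes with CLA18:2 were 0.73 and 0.02, and that of PSMD9 with CLA18:3 was 0.36. A second match in PSMD9, 149 bases before the start, is not printed. Whether a match bears on the response was not tested.

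The 13 tested genes other than the core 26S subunits, the immunoproteasome subunit PSMB10 among them, were called in both directions. With CLA18:2, 3 rose (PSMD10, PSME1 and PSME4) and 3 fell (PSMG4, PSMG1 and PSME3), with a median log2 fold change of -0.10, and these counts are near the background of 20.1% of all genes tested called higher and 18.6% lower. Whether they differ from the core subunits as a class was not tested.

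The 4 chaperones of the 20S core had lower means with CLA18:2, in contrast to the subunits they assemble, and 2 of the 4 fell. PSMG1, which pairs with PSMG2 to order the alpha ring, had 38.6, 41.6, 39.5 and 48.9 CPM in CLA18:2 libraries, against 55.5, 56, 58 and 57.1 CPM in DMSO libraries. All CLA18:2 libraries lay below all DMSO libraries, and PSMG1 fell by 0.43 ± 0.06 on the log2 scale (log2 fold change -0.43, adjusted p = 1.1e-06, edgeR). PSMG4, the partner of PSMG3, had 15.8, 23.5, 18.7 and 19.6 CPM with CLA18:2 and 27, 27.7, 29.2 and 26.2 CPM with DMSO. The groups did not overlap, and the log2 fold change was -0.50 ± 0.14 (adjusted p = 0.00333, edgeR). Without the 8 libraries low in mitochondrial mRNA PSMG4 was no longer called, at -0.34 (adjusted p = 0.0747, edgeR). PSMG2 and PSMG3 had log2 fold changes of -0.11 ± 0.07 and -0.15 ± 0.07 and were not called. Summed, the 4 chaperones took 142 ± 8.67 CPM in CLA18:2 cells and 172 ± 4.14 CPM in DMSO cells (SD, n = 4 each).

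Of the 3 chaperones of the 19S base, only PSMD10 (gankyrin) was called with CLA18:2. It had 50.7, 56, 58.1 and 53.5 CPM with CLA18:2, against 45.8, 42.9, 46.2 and 39.6 CPM with DMSO, without overlap, and rose by 0.32 ± 0.06 on the log2 scale (adjusted p = 2.4e-05, edgeR). PSMD5, which is known to restrain 26S assembly, had a log2 fold change of -0.06 ± 0.08, and PSMD9 one of 0.02 ± 0.11.

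The activators, which open the core in place of the 19S cap, split. PSME4 (PA200) had 282, 240, 250 and 235 CPM with CLA18:2 and 163, 167, 165 and 182 CPM with DMSO, a log2 fold change of 0.57 ± 0.06 (adjusted p = 8.9e-10, edgeR) with no overlap. PSME3 (the nuclear PA28 gamma) had 276, 275, 285 and 281 CPM with CLA18:2 and 323, 330, 329 and 315 CPM with DMSO. It was lower in every CLA18:2 library, with a log2 fold change of -0.22 ± 0.04 (adjusted p = 1.4e-05, edgeR). PSME1 and PSME2 form the interferon-inducible PA28, and only PSME1 passed the test, at 0.24 ± 0.09 (adjusted p = 0.0252, edgeR), while PSME2 stood at 0.07 ± 0.08. The call of PSME1 was lost when DMSO replicate 1 or 4 or CLA18:2 replicate 2 or 4 was left out, with adjusted p from 0.052 to 0.0666 (edgeR). PSMF1, the proteasome inhibitor PI31, had a log2 fold change of -0.10 ± 0.05 and was not called. PSMB10, the third immunoproteasome subunit and the only one with counts, averaged 2.87 CPM in DMSO cells and had a log2 fold change of -0.29 ± 0.24, also not called.

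**Figure D3:**
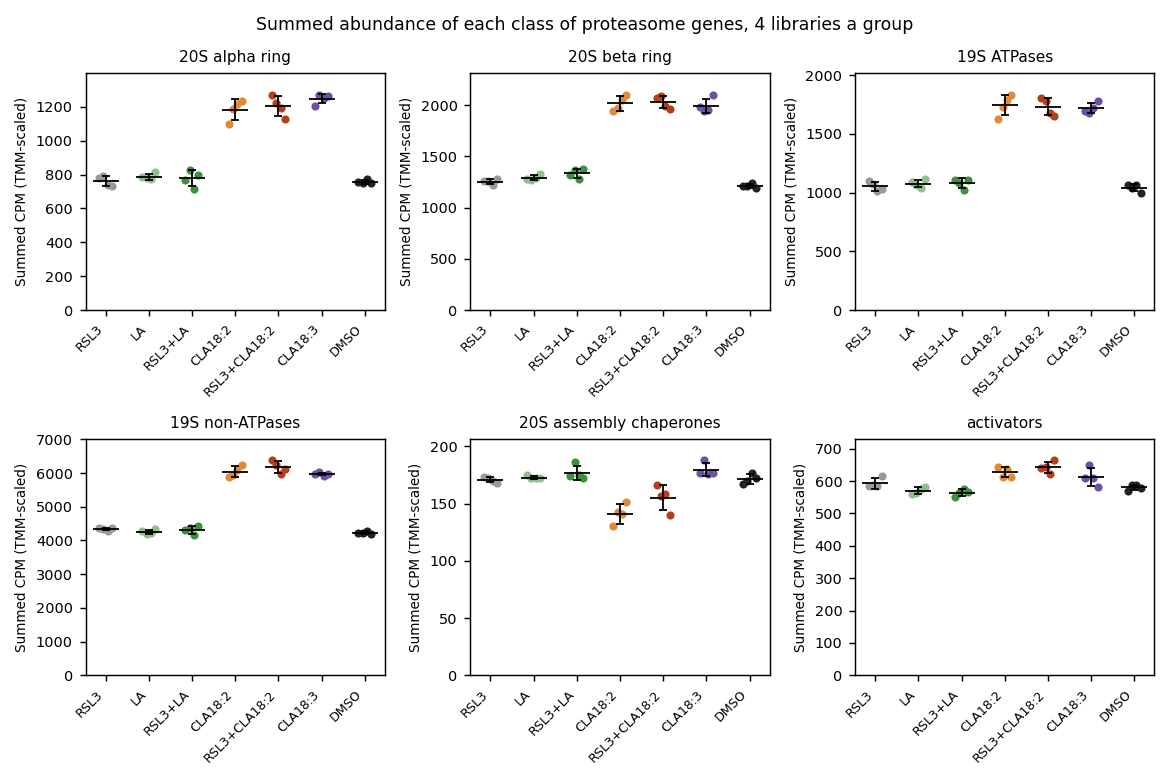
Summed CPM (TMM-scaled, linear axis from 0) of each class in every library, 1 point a library, with the group mean and SD (n = 4) and DMSO at the right. The 4 core classes stand at a higher level in the CLA18:2, RSL3+CLA18:2 and CLA18:3 groups, while the 20S assembly chaperones are lowest with CLA18:2, at 142 CPM, and at 179 CPM with CLA18:3.

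CLA18:3 was given at 5 µM, a dose that differs from the 80 µM of CLA18:2, so the values below are set side by side without a comparison between the acids. The comparison with DMSO shares the DMSO libraries with all the others. With CLA18:3, 34 of the 43 genes rose and none fell, against 19.1% of all genes tested called higher and 16.7% lower. The same number of core subunits, 29 of 30, rose, with a median log2 fold change of 0.69, and the 48 genes took 11944 ± 108 CPM in CLA18:3 cells and 8207 ± 102 CPM in DMSO cells. The CLA18:3 libraries detected 18645 to 20454 genes at a common total of counts and the DMSO libraries 22646 to 22896, and the part of this difference in the result was not tested. Over the other genes tested, the median log2 fold change with CLA18:3 ran from 0.13 in the shortest of 4 equal length classes to -0.10 in the longest, and over the proteasome genes it was 0.63 and 0.50 in the same classes.

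PSMB5 had 355, 345, 344 and 371 CPM in CLA18:3 libraries, against 225, 230, 234 and 221 CPM in DMSO libraries, a log2 fold change of 0.64 ± 0.04 (adjusted p = 1.0e-14, edgeR). PSMB2 had 395, 401, 400 and 417 CPM with CLA18:3, against 225, 228, 225 and 220 CPM with DMSO, a log2 fold change of 0.84 ± 0.04. In neither gene did the groups overlap. PSMA1 rose most, by 0.95 ± 0.10, and PSMC6 led the ATPases at 0.92 ± 0.05, while PSMD7 was again the least changed of the called core subunits, at 0.23 ± 0.06. The alpha ring summed to 1249 ± 28.2 CPM in CLA18:3 cells and 758 ± 12.6 CPM in DMSO cells, and the beta ring to 1993 ± 69.4 CPM in CLA18:3 cells and 1214 ± 20.8 CPM in DMSO cells. The ATPases had 1718 ± 43.3 CPM in CLA18:3 cells and 1040 ± 28.7 CPM in DMSO cells.

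Of the 13 tested genes other than the core 26S subunits, 5 rose with CLA18:3, against 19.1% of all genes tested called higher. PSME1 and PSME2 rose by 0.37 ± 0.09 and 0.32 ± 0.08 (adjusted p = 0.00102 and 0.00159, edgeR), PSMD9 by 0.36 ± 0.10, PSMD10 by 0.21 ± 0.06 and PSME4 by 0.23 ± 0.06. PSME1 had 44.1, 51.7, 48.5 and 33.4 CPM with CLA18:3, against 33.2, 34.3, 36.1 and 33.9 CPM with DMSO, and the groups overlap. For PSME4 they also overlap, with 181 CPM in the lowest CLA18:3 library and 182 CPM in the highest DMSO library. PSMG1 had 59, 58.7, 56 and 54.4 CPM in CLA18:3 libraries and 55.5, 56, 58 and 57.1 CPM in DMSO libraries, which overlap, and its log2 fold change was 0.01 ± 0.06. None of the 4 core chaperones was called. PSME3 had a log2 fold change of -0.09 ± 0.04 and was not called, with adjusted p = 0.0711 (edgeR). It was called lower by DESeq2 (adjusted p = 0.0172) and by limma voom (adjusted p = 0.043). In edgeR it was also called lower with DESeq2 size factors (adjusted p = 0.0366) and with upper quartile scaling (adjusted p = 0.0204).

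LA and RSL3 left the proteasome genes close to DMSO. With LA, 2 of 43 genes rose and none fell, against 4.91% of all genes tested called higher and 3.41% lower. The share of 4.65% of the members is no higher than the background. An unadjusted p under 0.05 in edgeR was reached by 12 of the 43, against 2977 of the 16325 genes tested. PSMB5 had 250, 250, 256 and 256 CPM with LA, against 225, 230, 234 and 221 CPM with DMSO, without overlap, and a log2 fold change of 0.15 ± 0.04 (adjusted p = 0.0124, edgeR). PSMD4, a ubiquitin receptor of the cap, had 162, 160, 170 and 173 CPM with LA, against 147, 157, 149 and 138 CPM with DMSO, a log2 fold change of 0.17 ± 0.04 (adjusted p = 0.0109, edgeR). Both calls were lost without DMSO replicate 4, at adjusted p = 0.0526 for PSMB5 and 0.0691 for PSMD4 (edgeR), and that of PSMD4 also without LA replicate 4, at 0.0565. Over the 28 core subunits other than PSMA2 and PSMA6, the 95% intervals of the log2 fold change with LA lay between -0.15 and 0.27, below the median of 0.68 seen with CLA18:2.

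With RSL3, edgeR called none of the 43 genes, against 0.202% of all genes tested. DESeq2 and limma voom also called none of them, against 66 and 27 of the 16325 genes tested. An unadjusted p under 0.05 in edgeR was reached by 4 of the 43, against 989 of the 16325. The 28 core subunits had log2 fold changes from -0.05 to 0.11, with intervals between -0.18 and 0.27. PSMB5 had 245, 236, 233 and 232 CPM with RSL3, against 225, 230, 234 and 221 CPM with DMSO, and the groups overlap. The smallest p was that of PSMD11, at 0.11 ± 0.04 (adjusted p = 0.419, edgeR).

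With RSL3+LA, 8 core subunits rose and PSME3 fell, against 5.43% of all genes tested called higher and 4.81% lower. The rises were small, from 0.13 ± 0.04 for PSMB2 to 0.23 ± 0.05 for PSMB1 on the log2 scale, and included PSMB5, PSMB6, PSMC2, PSMD1, PSMD4 and PSMD11. PSMB1 had 213, 234, 225 and 225 CPM with RSL3+LA, against 188, 182, 203 and 191 CPM with DMSO, without overlap (adjusted p = 8.6e-04, edgeR). PSME3 had 280, 284, 294 and 296 CPM with RSL3+LA, against 323, 330, 329 and 315 CPM with DMSO, and a log2 fold change of -0.17 ± 0.04 (adjusted p = 0.00186, edgeR). The count of genes called was 4 without RSL3+LA replicate 2 and 5 without DMSO replicate 4, and PSMB1, PSMC2, PSMD11 and PSME3 kept their calls whichever library was left out.

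CLA18:2 and LA, which differ in the conjugation of their double bonds, were given at the same dose of 80 µM and can be compared directly. Between them, 30 of the 43 genes were higher and 4 lower with CLA18:2, against 15.6% of all genes tested called higher and 14.6% lower. Of the 30 core subunits 28 were higher, with a median log2 fold change of 0.61. PSMB2 had 431, 451, 465 and 462 CPM with CLA18:2, against 232, 222, 222 and 233 CPM with LA, and a log2 fold change of 0.99 ± 0.04 (adjusted p = 1.1e-20, edgeR). PSMC2 differed by 0.90 ± 0.05 and PSMB5 by 0.43 ± 0.04, in each case with no overlap of libraries.

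The exceptions were PSMA2 and PSMD7. For PSMD7 the difference between CLA18:2 and LA was 0.11 ± 0.06, with a 95% interval from -0.01 to 0.24 (adjusted p = 0.179, edgeR). PSMG1 was lower with CLA18:2 than with LA, at a log2 fold change of -0.41 ± 0.06 (adjusted p = 3.4e-06, edgeR), as were PSMG3 at -0.23 ± 0.07, PSMG4 at -0.39 ± 0.14 and PSME3 at -0.11 ± 0.04. Without CLA18:2 replicate 1 all 3 of PSMG3, PSMG4 and PSME3 lost the call, with adjusted p = 0.0729, 0.158 and 0.0984 (edgeR). PSMG4 also lost it without CLA18:2 replicate 3 or LA replicate 2 or 4, and PSME3 without CLA18:2 replicate 2 or LA replicate 3 or 4. Without the libraries low in mitochondrial mRNA, 2 of CLA18:2 and 1 of LA among them, PSMG4 stood at -0.19 (adjusted p = 0.447) and PSME3 at -0.10 (adjusted p = 0.124, edgeR), neither of them called. PSME4 was higher by 0.55 ± 0.06. For PSME1, PSME2 and PSMF1 the intervals of the difference were -0.13 to 0.22, -0.21 to 0.11 and -0.18 to 0.03.

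**Figure D4:**
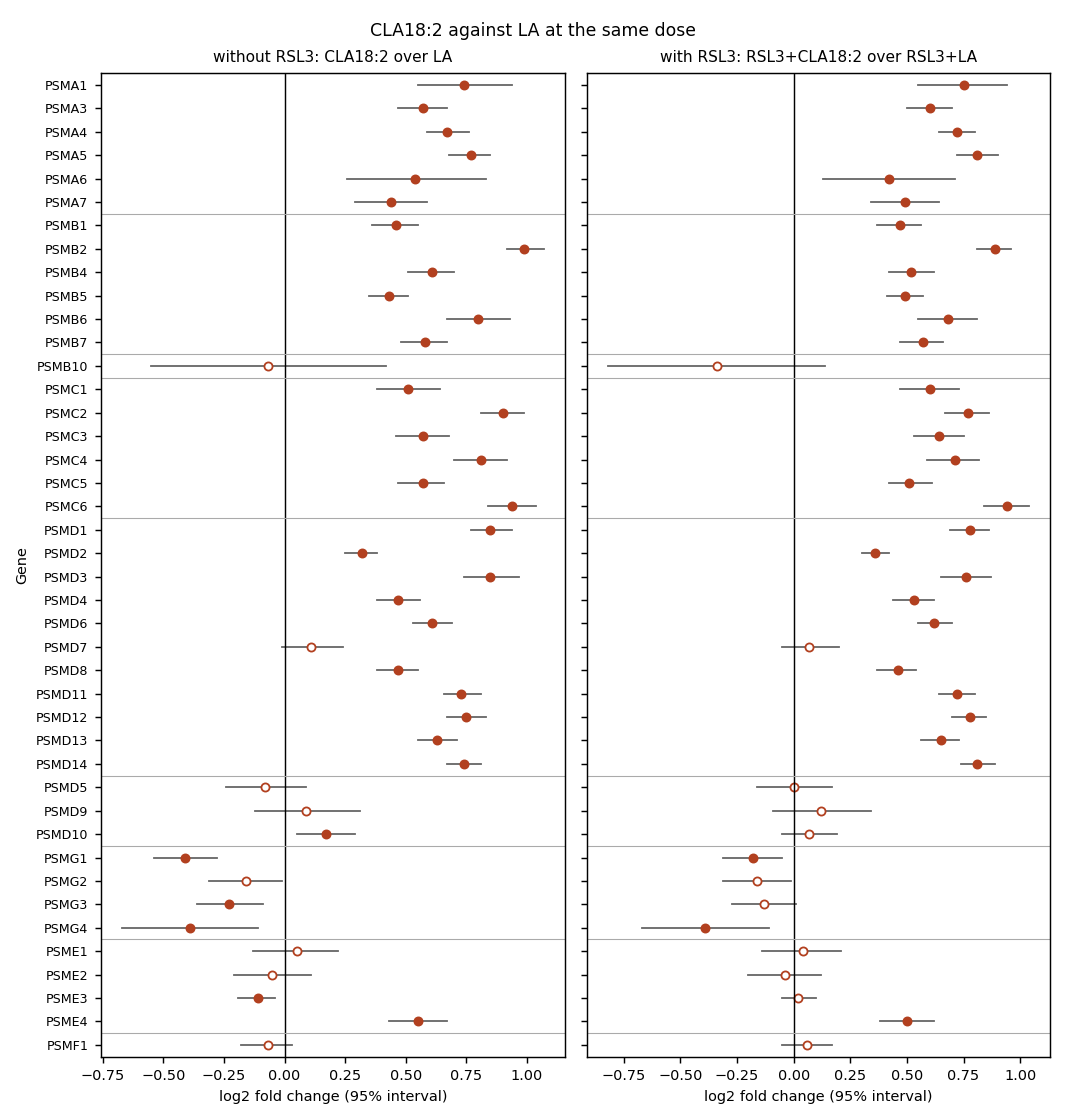
Log2 fold change of CLA18:2 over LA (left) and of RSL3+CLA18:2 over RSL3+LA (right) for 42 proteasome genes (PSMA2, with intervals wider than the axis, is not drawn), with 95% intervals from edgeR and filled points at an adjusted p under 0.05. Core subunits lie right of 0 in both panels, PSMD7 touches 0, and the PSMG genes lie left of it.

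In the presence of RSL3 the same contrast, RSL3+CLA18:2 against RSL3+LA, called 29 genes higher and 2 lower, against 14.1% of all genes tested called higher and 12% lower. PSMB2 had 450, 458, 448 and 464 CPM with RSL3+CLA18:2, against 234, 251, 244 and 255 CPM with RSL3+LA, a log2 fold change of 0.89 ± 0.04 (adjusted p = 3.3e-19, edgeR). PSMC6 differed by 0.94 ± 0.05 and PSMD14 by 0.81 ± 0.04. PSMG1, at -0.18 ± 0.06, and PSMG4, at -0.39 ± 0.14, were the lower genes (adjusted p = 0.0327 and 0.0348, edgeR), and both lost the call when single libraries were left out. For PSMG1 these were replicates 2 and 3 of each group, with adjusted p up to 0.128, and for PSMG4 replicate 4 of RSL3+CLA18:2 and replicates 1, 2 and 4 of RSL3+LA, with adjusted p up to 0.177. PSMA6 was higher by 0.42 ± 0.14 and lost the call without any of 5 single libraries, with adjusted p up to 0.0972. Without the libraries low in mitochondrial mRNA, which include 3 of the 4 RSL3+CLA18:2 libraries, PSMG4 stood at -0.25 (adjusted p = 0.388) and PSMA6 at 0.54 (adjusted p = 0.0581, edgeR), and neither was called. PSMD7 had a difference of 0.07 ± 0.06, with an interval from -0.05 to 0.20.

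With RSL3 added to CLA18:2 the rise of the core subunits was again present. Against DMSO, RSL3+CLA18:2 raised 32 of 43 genes and lowered 2 (PSMG4 and PSME3), against 18.6% of all genes tested called higher and 16.6% lower, and again 29 of 30 core subunits rose, with a median of 0.70. The RSL3+CLA18:2 libraries detected 18961 to 21298 genes at a common total of counts and the DMSO libraries 22646 to 22896, and the part of this difference in the result was not tested. The 48 genes took 12160 ± 342 CPM in RSL3+CLA18:2 cells and 8207 ± 102 CPM in DMSO cells. PSMC6 rose most, by 1.06 ± 0.05, with 206, 213, 218 and 217 CPM with RSL3+CLA18:2, against 103, 103, 102 and 100 CPM with DMSO. The groups did not overlap (adjusted p = 9.5e-19, edgeR). Against RSL3 alone, RSL3+CLA18:2 raised 32 genes and lowered 1, PSME3, against 15.9% of all genes tested called higher and 14.5% lower. Against DMSO, PSMD7 rose by 0.20 ± 0.06 and lost the call without DMSO replicate 4 or RSL3+CLA18:2 replicate 1 (adjusted p up to 0.07, edgeR). PSME1, at 0.25 ± 0.09, lost it without DMSO replicate 1 or RSL3+CLA18:2 replicate 1 or 2 (adjusted p up to 0.0599). PSMD10, at 0.15 ± 0.06, lost it without DMSO replicate 2 or 4 or RSL3+CLA18:2 replicate 1, 2 or 3 (adjusted p up to 0.201). Of the 4 RSL3+CLA18:2 libraries 3 were low in mitochondrial mRNA, and without the 8 such libraries 30 genes were still called, 29 higher and 1 lower, with 1 RSL3+CLA18:2 library left. The calls lost in that setting were those of PSMD7, whose log2 fold change was 0.10 (adjusted p = 0.433, edgeR), PSME1 at 0.22 (adjusted p = 0.245), PSMD10 at 0.16 (adjusted p = 0.169) and PSMG4 at -0.40 (adjusted p = 0.116).

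Set directly against CLA18:2 alone, RSL3+CLA18:2 called 2 of the 43 genes, against 11.9% of all genes tested. PSMG1 was the higher one, with 56.2, 49.4, 48.4 and 52 CPM in RSL3+CLA18:2 libraries, against 38.6, 41.6, 39.5 and 48.9 CPM in CLA18:2 libraries. The groups overlap by 1 CLA18:2 library, and the log2 fold change was 0.29 ± 0.06 (adjusted p = 0.002, edgeR). It was 0.09 (adjusted p = 0.653, edgeR) without the libraries low in mitochondrial mRNA, which leaves 1 RSL3+CLA18:2 library and 2 CLA18:2 libraries. PSMD10 was the lower one, at -0.18 ± 0.06 (adjusted p = 0.0426, edgeR), and lost the call without replicate 1, 3 or 4 of RSL3+CLA18:2 or replicate 2, 3 or 4 of CLA18:2 (adjusted p up to 0.157). The 28 core subunits had log2 fold changes from -0.11 to 0.12, with intervals between -0.22 and 0.28.

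RSL3+LA against LA called none of the 43 genes in edgeR, against 0.049% of all genes tested. An unadjusted p under 0.05 in edgeR was reached by 3 of the 43, against 1158 of the 16325 genes tested. DESeq2 and limma voom called none of the 43 either, against 37 and 6 of the 16325. RSL3+LA against RSL3 called PSMB6 and PSMD4 higher and PSME3 lower, against 3.78% of all genes tested called higher and 5.8% lower, so the members' share did not stand out from the background. For PSME3 the log2 fold change was -0.19 ± 0.04 (adjusted p = 6.2e-04, edgeR). No proteasome gene passed an interaction test of the RSL3 response by LA, by CLA18:2 or by which of these acids was present, against 0.0245%, 3.55% and 3.63% of all genes tested. An unadjusted p under 0.05 in edgeR was reached by 1, 3 and 3 of the 43, against 985, 2496 and 2554 of the 16325 genes tested. The smallest p was that of PSMG1 for RSL3 by CLA18:2, at 0.28 ± 0.09 (adjusted p = 0.0826, edgeR), and DESeq2 called 1 gene there.

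Among factors that assemble or bind the 26S proteasome, 12 of 17 rose and 2 fell with CLA18:2, with a median log2 fold change of 0.56, against 20.1% of all genes tested called higher and 18.6% lower. POMP, the chaperone that completes the beta ring, had 257, 278, 276 and 289 CPM with CLA18:2, against 206, 211, 215 and 197 CPM with DMSO. The groups did not overlap, and POMP rose by 0.41 ± 0.06 (adjusted p = 2.1e-07, edgeR), while none of the 4 PSMG chaperones rose. The ubiquitin receptor ADRM1 rose by 0.68 ± 0.06 and the deubiquitinase USP14 by 0.71 ± 0.04. ZFAND2A (AIRAP), a proteasome-associated protein of the heat shock response, had 42.8, 46.6, 52.7 and 53.9 CPM with CLA18:2, against 10.6, 12.3, 12.3 and 12.1 CPM with DMSO, a log2 fold change of 2.05 ± 0.09 (adjusted p = 7.4e-19, edgeR). The genes that fell were UCHL5 and UBE3C, at -0.25 and -0.13.

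UBB, a polyubiquitin gene, had 299, 356, 357 and 380 CPM with CLA18:2, against 260, 300, 267 and 243 CPM with DMSO. The lowest CLA18:2 library lay just below the highest DMSO library, and UBB rose by 0.38 ± 0.10 (adjusted p = 0.00141, edgeR). RPS27A, which encodes ubiquitin fused to a ribosomal protein, had a log2 fold change of 0.08 ± 0.06 with CLA18:2 and was not called, and with CLA18:3 it rose by 0.54 ± 0.06. All 5 genes of the p97 segregase and its cofactors rose with CLA18:2, against the same 20.1% of all genes called higher, with VCP (p97) at 1048, 1049, 1084 and 1078 CPM, against 576, 553, 565 and 573 CPM with DMSO, and a log2 fold change of 0.91 ± 0.03. UFD1, a cofactor of p97, rose by 0.81 ± 0.05. With CLA18:3, 12 of the 17 factors and 4 of the 5 p97 genes rose, and 2 of the 17 factors (UBE3C and UBQLN4) fell, against 19.1% of all genes tested called higher and 16.7% lower.

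Of 9 regulators of proteasome gene transcription, 6 rose with CLA18:2 and none fell, against 20.1% of all genes tested called higher and 18.6% lower. The mRNA of NFE2L1, whose protein is controlled mainly after translation, had 581, 566, 586 and 576 CPM with CLA18:2, against 533, 522, 521 and 520 CPM with DMSO, a small rise of 0.14 ± 0.04 without overlap (adjusted p = 0.00369, edgeR). With CLA18:3 it stood at -0.08 ± 0.04, and with RSL3+CLA18:2 at -0.01 ± 0.04, neither of them called. NFE2L2 rose by 0.62 ± 0.06 with CLA18:2, by 0.62 ± 0.06 with RSL3+CLA18:2 and by 0.40 ± 0.06 with CLA18:3. MAFG, a small MAF partner of both, rose by 1.19 ± 0.05 with CLA18:2. DDI2, the protease that activates NFE2L1, had a log2 fold change of -0.16 ± 0.08 with CLA18:2, not called, and of -0.21 ± 0.07 with CLA18:3 (adjusted p = 0.0238, edgeR).

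**Figure D5:**
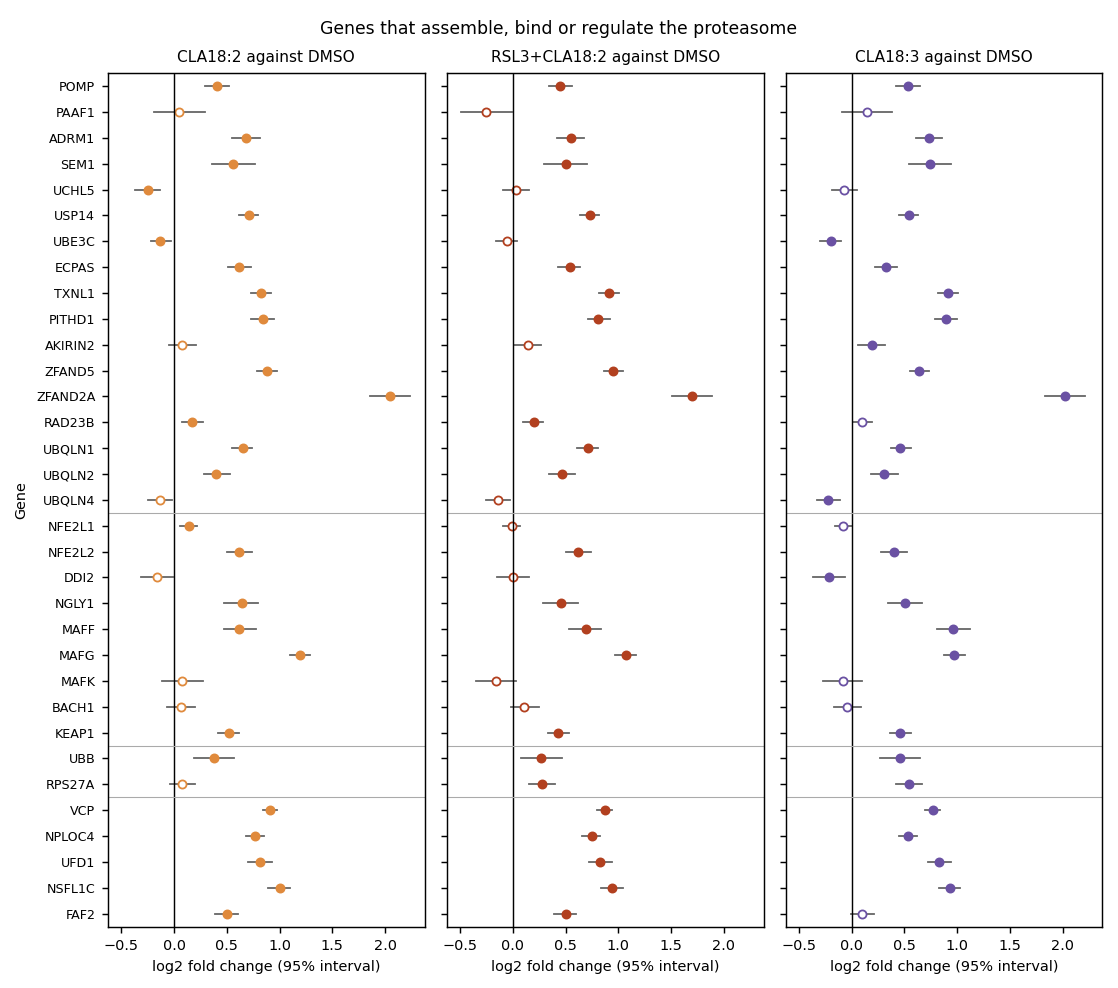
Log2 fold change against DMSO of 33 genes that assemble, bind, feed or regulate the proteasome, in CLA18:2, RSL3+CLA18:2 and CLA18:3 cells, with 95% intervals from edgeR and filled points at an adjusted p under 0.05. ZFAND2A lies furthest right in each panel, at 2.05, 1.70 and 2.02, and NFE2L1 and DDI2 lie near 0.

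Of the 12 antigen presentation genes listed, which use the immunoproteasome's products, 8 were tested, and 3 rose and 1 fell with CLA18:2, counts that in so short a list are not far from the 20.1% of all genes tested called higher and 18.6% lower. B2M rose by 0.30 ± 0.07 and the aminopeptidase ERAP2 by 0.78 ± 0.08, while NLRC5, a transactivator of class I genes, fell to 9.26 to 11.6 CPM in CLA18:2 libraries, against 18.2 to 20 CPM in DMSO libraries (log2 fold change -0.86 ± 0.13, adjusted p = 2.6e-06, edgeR). IRF1, which induces the immunoproteasome genes, had a log2 fold change of 0.06 ± 0.12 and was not called. TAP1, in the same stretch of chromosome 6 as PSMB8 and PSMB9, was at 0 in all libraries.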

How the data were processed

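The authors deposited raw read counts per gene, 1 column a library, for 28 libraries of total RNA. Per the labels' protocols, RNA was extracted with the RNeasy mini plus kit and sequenced by Novogene on a NovaSeq 6000. The tools named in the submitters' processing notes are featureCounts, HISAT, DESeq2 and SAMtools, and the build is hg38. Versions, annotation and strand setting are not given in the sources used here. The design text gives the fatty acids in µM and sample labels in mM, and µM is used here.

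Genes were filtered with edgeR's filterByExpr on the 7 groups, which left 16325 of 60286 genes, and TMM-scaled. With edgeR 4.0.16 (R 4.3.3), 1 fit to the 28 libraries with a coefficient for each group gave 12 contrasts and 3 interactions, each tested by quasi-likelihood F, adjusted over all genes tested (Benjamini-Hochberg). The SE is the absolute log2 fold change over the root of F, and intervals are at 95%. The members, lists and tests were chosen with earlier results of these data known, and 3 genes of the partner lists are not reported here. Named genes are fixed members and partners, the 3 smallest p each way in a comparison and the extremes of each class.

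Alternatives were upper quartile scaling, DESeq2 size factors, no filter, DESeq2 1.42.0, limma 3.58.1 voom, only the groups compared, a replicate block and each replicate left out. Leaving out the libraries under 1% mitochondrial mRNA was chosen after seeing the data. Libraries were not paired by number, since deviations from the group means correlated above 0.1 in only 5 of 84 same-numbered pairs and for all 4 numbers in no pair of groups. All 42 pairs of replicates differed by more than counting noise (chi-square over its degrees of freedom 2.36 to 26.6). On simulated CLA18:2 against DMSO the method recovered 74%, 92%, 100% and 100% of 50 genes each at 1.25-, 1.5-, 2- and 4-fold. There were 13 false calls among the unchanged genes of the 16325. The changed genes were drawn from those averaging at least 100 counts a library. Recovery at lower counts, such as those of PSMA2 and PSMB10, was not tested. Recovery at the wider spread of the RSL3+CLA18:2 and CLA18:3 groups was not tested. Exon lengths and positions are from GENCODE 29, promoters from RefSeq, and figures were drawn with matplotlib 3.10.9 in Python 3.11.15.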

Additional observations from a re-analysis of the deposited data

Results flagged for a closer look

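Among 301 groups of 4 libraries, 43 genes in 7 groups, 16 had a library that stood apart from the other 3 by Dixon's criterion, or 5.32%, and chance alone marks about 1 group in 20. CLA18:2 replicate 1 was low for PSMA1 at 44.2 CPM (others 57.4 to 58.2), PSMA7 at 374 CPM (others 447 to 461) and PSMC1 at 181 CPM (others 207 to 209). In CLA18:2 replicate 2 PSMA2 was high at 1.09 CPM. RSL3+CLA18:2 replicate 4 was low for PSMC1 at 177 CPM and PSMG4 at 13.8 CPM (others 20 to 21.2), and in replicate 3 PSMD6 was high at 250 CPM. RSL3+LA replicate 2 was high for PSMD1 at 277 CPM (others 248 to 250), PSMD14 at 241 CPM and PSMD4 at 174 CPM, and replicate 4 for PSMD8 at 238 CPM. RSL3 replicate 3 was low for PSMB4 at 235 CPM and replicate 2 high for PSMD11 at 240 CPM. LA replicate 3 was low for PSMC4 at 208 CPM and replicate 4 high for PSMD7 at 82.9 CPM, and DMSO replicate 4 was low for PSMC3 at 235 CPM. Of 56 groups of class sums, 2 stood out: the 20S assembly chaperones in CLA18:3 replicate 2, at 188 CPM, and the activators in RSL3 replicate 4, at 617 CPM. The outlying libraries include RSL3+LA replicate 2, without which the count for RSL3+LA against DMSO was 4 in place of 9.

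The response to RSL3 differed between cells with and without CLA18:2 for 2 partner genes, tested as an interaction in edgeR. The interaction, the log2 RSL3 response with CLA18:2 minus that without, was -0.63 for ZFAND2A (adjusted p = 0.00387) and -0.24 for MAFG (adjusted p = 0.0354). For MAFG the RSL3 response with CLA18:2 minus that with LA was -0.27 (adjusted p = 0.0164, edgeR).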

How the results depend on the processing

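In the comparisons followed gene by gene, no called direction of a proteasome gene reversed under any alternative. The calls of RSL3+LA against RSL3 and of RSL3+CLA18:2 against RSL3, and those of the partner genes, were not followed in this way. The counts of proteasome genes called in the comparisons of CLA18:2, CLA18:3 and RSL3+CLA18:2 with DMSO, LA, RSL3+LA or RSL3 stayed within 1.5 times their value in all alternatives. LA against DMSO (2 genes) gave 0 with no filter, 5 with DESeq2 and 7 when only the groups compared were fitted. RSL3+LA against DMSO (9) gave 4 with no filter. RSL3+LA against RSL3 (3) gave 1 with limma voom and 1 with only the groups compared. RSL3+CLA18:2 against CLA18:2 (2) gave 1 with no filter, 1 with only the groups compared and 0 without the libraries low in mitochondrial mRNA. RSL3 by CLA18:2 gave 1 with DESeq2. The cause was not tested.

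With each replicate left out in turn, the counts were 0 to 2 for LA, 34 to 35 for CLA18:2, 34 to 35 for CLA18:3, 4 to 11 for RSL3+LA and 32 to 34 for RSL3+CLA18:2 against DMSO, 31 to 34 for CLA18:2 against LA, 29 to 30 for RSL3+CLA18:2 against RSL3+LA, 1 to 4 for RSL3+LA against RSL3, 31 to 33 for RSL3+CLA18:2 against RSL3, and 1 to 2 for RSL3+CLA18:2 against CLA18:2. They were 0 to 1 for RSL3 by CLA18:2 and for RSL3 by isomer, the 1 without CLA18:2 replicate 4, and 0 for RSL3 against DMSO, RSL3+LA against LA and RSL3 by LA.

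The median log2 fold change moved by more than the spread in 6 cases: CLA18:2 against LA to 0.61 without the low-mitochondrial libraries and 0.60 without CLA18:2 replicate 1, RSL3+CLA18:2 against RSL3+LA to 0.47 with upper quartile scaling, and, without the low-mitochondrial libraries, RSL3+CLA18:2 against CLA18:2 to -0.04, RSL3 by CLA18:2 to -0.05 and RSL3 by isomer to -0.05.

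With the replicate block, CLA18:2 against DMSO called 35 genes and RSL3+CLA18:2 against DMSO 33, and the samples share only a number. PSMA2, under 1 CPM in DMSO cells, had a 95% interval from -1.29 to 1.14 for CLA18:2 against DMSO.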
